A study of Caenorhabditis elegans with 12 samples.

Results

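The 43 genes described here encode nuclear subunits of respiratory complexes I, III and IV, factors that assemble complex IV, and subunits of the mitochondrial ATP synthase of *Caenorhabditis elegans*. They were taken by gene name from the 46904 genes of the deposited expression table, as every gene whose name starts with *nuo*, *nduf*, *ndua*, *ndub*, *cox*, *ucr*, *asb* or *asg*, together with *atp-1* to *atp-5*, *gas-1*, *isp-1*, *cyc-1* and *lpd-5*. The rule uses names only, though it was set with earlier results of these data known. By complex, 12 genes belong to complex I, 7 to complex III, 7 to complex IV as subunits, 8 to complex IV as assembly factors and 9 to the ATP synthase. In the annotation used for positions (Ensembl release 115 of WBcel235), 15 of the genes lie on chromosome I, 3 on II, 11 on III, 5 on IV, 4 on V and 5 on X. A further 18 complex I genes appear in the files under sequence names only, so the rule did not take them, and they are counted separately.

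Complex I takes electrons from NADH and passes them to ubiquinone, complex III hands them on to cytochrome c, and complex IV gives them to oxygen. The protons pumped on the way drive the ATP synthase, whose stalk subunits hold the catalytic head to the membrane part. In worms, reduced function of several of these genes, among them *nuo-6*, *isp-1*, *cyc-1*, *nuo-2*, *cco-1* (*cox-5B* in the files) and *atp-3*, is known to lengthen life.

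The study asked which genes respond to reduced *rpia-1*, an isomerase gene of the pentose phosphate pathway, under the 2 knockdown conditions with the longest lifespan. RNA of whole worms was sequenced in 4 groups of 3 libraries: N2 EV, N2 *rpia-1* (RNAi) Day 0, TU3401 EV and TU3401 *rpia-1* (RNAi) WL. N2 is the wild type. TU3401 carries the integrated transgene *uIs69*, which holds *unc-119p*::*sid-1*, with a neuronal promoter driving the double-stranded RNA channel SID-1, beside the pharyngeal marker *myo-2p*::mCherry on plasmid *pCFJ90*, and the study used it as a line for pan-neuronal knockdown. Strains were kept on *E. coli* OP50, and RNAi was given by feeding HT115 bacteria, with an empty vector (EV) in the controls. Knockdown began in adulthood in N2 (Day 0) and at the embryonic stage in TU3401 (WL, whole life). The labels give day 5 of adulthood for both N2 groups and day 0 for both TU3401 groups, while the study's methods describe daily transfer to day 5 for all samples and the headers of all TU3401 columns carry L4, the name of the last larval stage. The age of the TU3401 worms is thus not settled. Strain, labelled age and the onset of feeding differ together between the N2 and TU3401 libraries and cannot be told apart. Each library came from at least 500 worms collected independently, and the p-values given here measure the spread between such collections.

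Values are those that the authors label TPM, a transcript abundance that scales each gene by its length and each library by its total. These totals ran from 1025899 to 1036143 per library. The depth in reads is unknown. The targeted gene was called in N2 only. Its level in TPM (mean ± SD, n = 3) was 121 ± 6.50 for N2 EV, 30.2 ± 2.68 for the N2 knockdown, 110 ± 4.56 for TU3401 EV and 92.3 ± 12.7 for the TU3401 knockdown. The difference was -1.97 on the log2 scale in N2 (adjusted p = 5.3e-04, limma) and -0.26 in TU3401 (unadjusted p = 0.055, adjusted p = 1.00), where replicate 3 of the knockdown, at 106 TPM, lay just under the EV libraries (107 to 115 TPM). Replicate 2 of N2 EV and replicate 3 of TU3401 EV stood apart, with a TPM to FPKM ratio of 1.39 and 1.21 against 1.70 to 1.93 in the other 10 libraries. Genes with under 600 exonic bases were higher in them than in their group mates, by a median of 0.09 and 0.14 on the log2 scale. Replicate 1 of the N2 knockdown had 22388 genes above 0 where the other N2 libraries had 17777 to 19135. The "whole worm" label was checked against tissue markers. In N2 EV, 8 body wall muscle markers summed to 115 to 133 TPM and 4 pharynx markers to 0.2 to 0.5 TPM, against 4814 to 5736 and 37.2 to 57.2 TPM in TU3401 EV. The muscle myosin gene *unc-54* stood at 7.02 ± 1.05 TPM in N2 EV and at 668 ± 36.5 TPM in TU3401 EV. The 10 germline markers summed to 3542 to 3742 TPM in N2 EV and to 1916 to 2386 TPM in TU3401 EV, and 6 sperm markers to 0.6 to 2.9 and 1272 to 1801 TPM. In N2 EV, 8 intestine markers summed to 160 to 168 TPM and 6 hypodermis markers to at most 60.1 TPM, against 5780 to 6100 and 849 to 1225 TPM in TU3401 EV. The sum of 10 neuron markers went the other way, with 431 to 460 and 312 to 330 TPM, although 7 of these genes were called higher in TU3401 EV and 2 lower. With muscle, pharynx and hypodermis markers this low, the N2 libraries go against their label, and what material they hold is in doubt. Each value of TU3401 EV against N2 EV is therefore a comparison of libraries under these labels, and not one of strains in like material. In bulk RNA, fewer cells of a type and less RNA per cell cannot be told apart.

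The 43 genes were abundant and reproducible. Summed over all of them, they gave 13952 ± 277 TPM in N2 EV, 14039 ± 67.6 TPM in the N2 knockdown, 16906 ± 526 TPM in TU3401 EV and 16688 ± 396 TPM in the TU3401 knockdown. These sums were at most 1.38% of a library's total in N2 and 1.70% in TU3401. The highest level belonged to *atp-1*, which encodes the alpha subunit of the catalytic head, at a mean of 1878 TPM over the 12 libraries. The lowest belonged to *cox-10*, which acts in heme A synthesis, at 9.67 TPM. Within complex I the highest mean was 322 TPM (*nuo-3*). The means ran within complex III from 55.2 TPM (*ucr-2.2*) to 395 TPM (*cyc-1*), and among complex IV subunits from 350 TPM (*cox-6A*) to 785 TPM (*cox-5A*). Assembly factors lay below the subunits, with *cox-16* the highest at 163 TPM. The exons of *nuo-3*, *cox-14* and *cox-16* overlap those of another coding gene by over 100 bases, so their values are uncertain. The coefficient of variation between replicates had a median over the 43 genes of 3.72% to 5.51%, depending on the group, where that of all genes with a group mean of at least 1 TPM was 6.79% to 15.9%. The latter were not matched to the 43 genes by level, so this does not show a trait of these genes. The least reproducible was *cox-17*, a copper chaperone with 321 exonic bases, at 40.0% in N2 EV and 35.0% in TU3401 EV, with its highest values in the 2 libraries that stood apart (29.0 and 33.5 TPM).

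**Figure D1:**
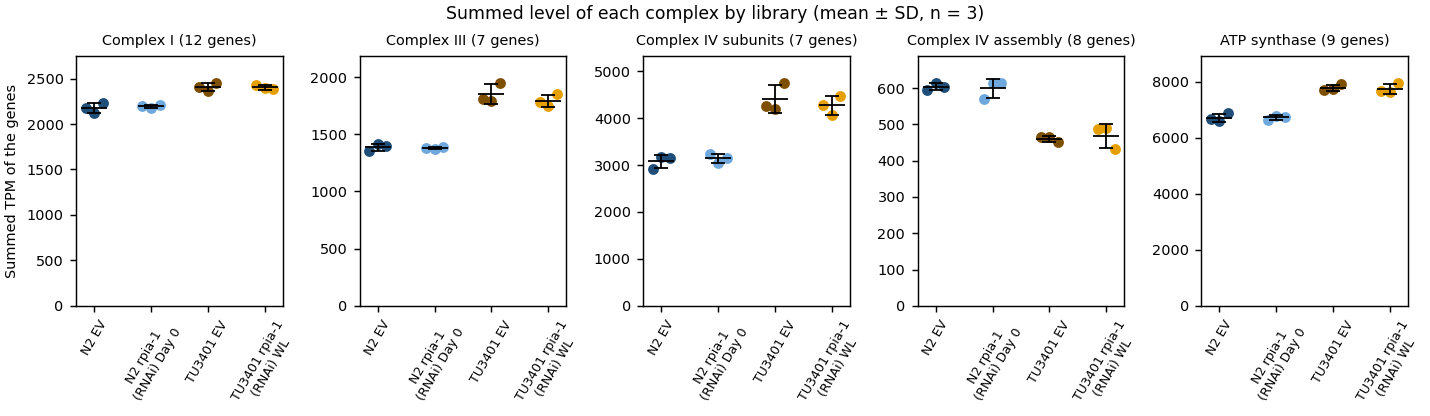
Summed TPM of the genes of each complex (vertical axes, from 0) in each of the 12 libraries, by group (points: libraries, bars: mean ± SD, n = 3). Complex IV subunits sum to 3078 TPM in N2 EV and 4405 TPM in TU3401 EV, the assembly factors to 604 and 460 TPM, and the knockdown groups lie beside their own controls.

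The sums show that the complexes did not differ alike between the control groups. Complex IV subunits summed to 2912, 3170 and 3152 TPM in the N2 EV libraries and to 4256, 4205 and 4753 TPM in the TU3401 EV libraries, a ratio of means of 1.43. Complex III followed with a ratio of 1.33 (1386 ± 30.9 and 1850 ± 87.4 TPM), the ATP synthase with 1.16 (6709 ± 146 and 7781 ± 106 TPM) and complex I with 1.11 (2175 ± 51.5 and 2410 ± 43.3 TPM). The assembly factors of complex IV went the other way, from 604 ± 9.78 TPM to 460 ± 7.99 TPM, a ratio of 0.762. Much of this sum comes from *cox-16* and *cox-14*, whose values are uncertain because of exon overlaps. In N2 EV they stood at 202 and 147 TPM, and in TU3401 EV at 125 and 137 TPM. In each of the 5 sets the TU3401 EV libraries did not overlap the N2 EV libraries. Within a strain, the knockdown sums were 0.992 to 1.02 times those of EV in N2 and 0.969 to 1.02 times those of EV in TU3401.

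The comparison of TU3401 EV with N2 EV gives the range over which these genes vary in the data set. Complex IV subunits were higher in TU3401 EV, and its assembly factors were lower or not called. In 3 subunits that are encoded by more than 1 gene, the balance between the copies differed, with the X-linked copies 4.47 to 5.97 times higher in TU3401 EV and the autosomal copies at 0.520 to 0.903 times their level in N2 EV. Among the other members described here, the ratios ran from 0.527 (*cox-11*) to 1.95 (*cox-6C*). By limma on log2(TPM + 1), with Benjamini-Hochberg adjustment over 13348 genes, 24 of the 43 genes were higher in TU3401 EV and 7 were lower. Of all genes tested, 88.8% were called, 45.4% as higher and 43.4% as lower, so the 31 members called (72.1%) are a smaller share than the background. The shares of members and of all genes whose groups did not overlap were close, at 38 of 43 members and 89.6% of all genes. A ratio of means of at least 2 in either direction was found in 5 of 43 members against 58.6% of all genes. All 5 were higher in TU3401 EV, as were 36.9% of all genes. The median log2 difference was 0.24 over the 43 genes and 0.06 over all genes tested, and its median size without sign was 0.35 and 1.11. Scaling the libraries by the median ratio of their genes moved the median of all genes to 0.22 and the members called to 30 higher and 5 lower.

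**Figure D2:**
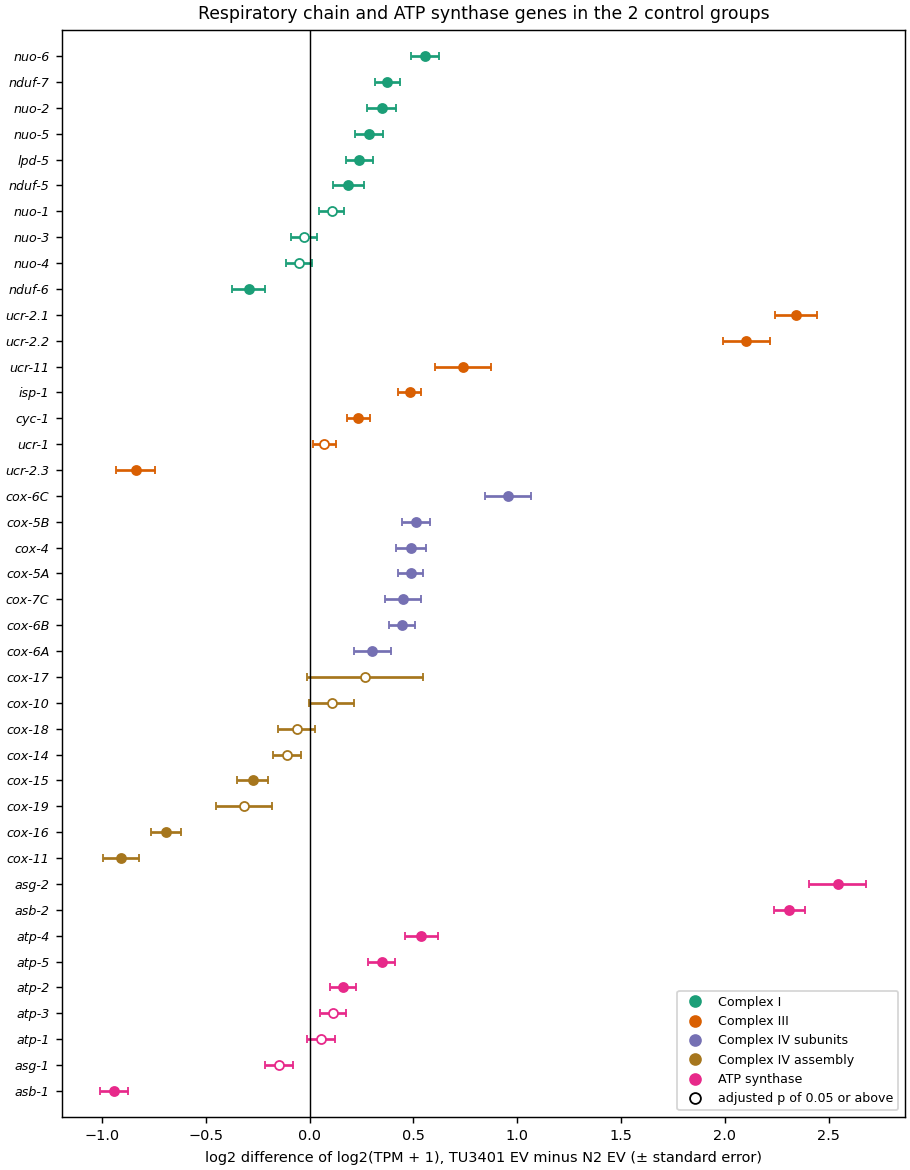
Difference of log2(TPM + 1) between TU3401 EV and N2 EV (horizontal axis, ± standard error, 3 libraries each) for 41 of the 43 genes, grouped by complex. Filled points have an adjusted p under 0.05. The X-linked genes *asg-2*, *ucr-2.1*, *asb-2* and *ucr-2.2* lie farthest to the right, up to 2.54, and all 7 complex IV subunits lie above 0.

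All 7 complex IV subunits were called higher in TU3401 EV, where 45.4% of all genes tested were. The differences ran from 0.30 (*cox-6A*) to 0.96 (*cox-6C*) on the log2 scale, with a median of 0.49. For *cox-4*, a conserved subunit, the N2 EV libraries gave 406, 444 and 419 TPM and the TU3401 EV libraries 571, 566 and 646 TPM. The groups did not overlap, and the difference was 0.49 ± 0.07 (SE, adjusted p = 1.5e-04, limma). *cox-5B*, a subunit used for RNAi in lifespan work, differed by 0.51 ± 0.07 (adjusted p = 6.0e-05) and *cox-5A*, the most abundant subunit, by 0.49 ± 0.06 (adjusted p = 4.1e-05). *cox-6C* gave 272, 334 and 311 TPM in N2 EV and 547, 544 and 694 TPM in TU3401 EV, with the highest value in replicate 3, which stood apart. With both of the libraries that stood apart left out, a setting chosen after the data were seen, its difference was 0.91. The call of *cox-6A* was lost when no minimum level was set for the genes tested.

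None of the 8 assembly factors was called higher and 3 were called lower, with a median of -0.19. Of all genes tested, 45.4% were called higher and 43.4% lower, so 3 of 8 is no larger a share than the background. *cox-11*, which acts in copper insertion, stood at 79.0, 71.4 and 78.4 TPM in N2 EV and at 36.5, 41.3 and 42.9 TPM in TU3401 EV. All 3 TU3401 libraries lay below all 3 N2 libraries, and the difference was -0.91 ± 0.09 (adjusted p = 6.7e-06). *cox-16*, an assembly factor, differed by -0.69 ± 0.07 (adjusted p = 1.1e-05), and *cox-15*, a partner of *cox-10* in heme A synthesis, by -0.27 ± 0.08 (adjusted p = 0.0070). For *cox-19*, a factor of copper handling, the difference of -0.32 had an adjusted p of 0.051. *cox-10*, *cox-14*, *cox-17* and *cox-18* were not called, at 0.11, -0.11, 0.27 and -0.06.

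In complex I, 7 of 12 genes were higher and 2 lower, with a median of 0.21, where 45.4% of all genes were called higher and 43.4% lower. *nuo-6*, an accessory subunit whose mutation is known to extend life, gave 144, 141 and 147 TPM in N2 EV and 205, 205 and 228 TPM in TU3401 EV. These groups were separate, with a difference of 0.56 ± 0.07 (adjusted p = 3.4e-05). *nuo-2*, a core subunit of the peripheral arm, differed by 0.35 ± 0.07 (adjusted p = 0.0010), and *lpd-5*, of the NDUFS4 type, by 0.24 ± 0.07 (adjusted p = 0.0068). *nduf-6*, an accessory subunit, was lower by -0.29 ± 0.08 (adjusted p = 0.0063), a call that was lost with FPKM values and with median-ratio scaling. The calls of *lpd-5* and of *cyc-1* were lost with FPKM values as well. *nuo-1*, the flavoprotein that takes electrons from NADH, was not called (0.11, 95% interval -0.03 to 0.24). The difference of *nuo-3*, an accessory subunit, was -0.03 as deposited and turned to 0.14 with FPKM values, to 0.16 with median-ratio scaling, to 0.02 with library weights and to 0.00 without TU3401 EV replicate 3.

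In complex III, *isp-1*, the Rieske iron-sulfur protein, varied little within groups. It gave 292, 292 and 289 TPM in N2 EV and 407, 399 and 415 TPM in TU3401 EV. The groups were separate, with a difference of 0.48 ± 0.06 (adjusted p = 2.6e-05). *cyc-1*, which encodes cytochrome c1, differed by 0.24 ± 0.06 (adjusted p = 0.0028). *ucr-1*, core protein 1, was not called (0.07, 95% interval -0.06 to 0.20).

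In the ATP synthase, 5 of 9 genes were higher and 1 was lower, where 45.4% of all genes were called higher and 43.4% lower. The head subunits gave small values. *atp-1* stood at 1883, 1730 and 1892 TPM in N2 EV and at 1900, 1968 and 1842 TPM in TU3401 EV. These groups overlapped, with a difference of 0.05 (95% interval -0.10 to 0.20). *atp-2*, the catalytic beta subunit, differed by 0.16 ± 0.06 (adjusted p = 0.033), but this call was lost with FPKM values, without the variance trend, with a replicate block and without N2 EV replicate 1 or 2 or TU3401 EV replicate 1 or 2, each left out in turn. *atp-3*, the subunit that joins stalk and head, was not called (0.11, 95% interval -0.03 to 0.26). The stalk genes *atp-5* (subunit d) and *atp-4* (coupling factor 6) differed by 0.35 ± 0.06 (adjusted p = 6.3e-04) and 0.54 ± 0.08 (adjusted p = 1.2e-04).

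Subunit b of the ATP synthase stalk is encoded by *asb-1* (III:4594543-4595821, minus strand), known as the germline form, and *asb-2* (X:4469766-4471476, plus strand). *asb-1* stood at 515, 544 and 523 TPM in N2 EV and at 292, 269 and 262 TPM in TU3401 EV. *asb-2* stood at 84.4, 83.5 and 84.7 TPM in N2 EV and at 394, 407 and 468 TPM in TU3401 EV. Both genes separated the groups completely and in opposite directions, by -0.94 ± 0.07 (adjusted p = 8.3e-07) and 2.31 ± 0.08 (adjusted p = 9.8e-09). The sum of both genes was nearer in the 2 groups, at 611 ± 14.5 and 697 ± 28.2 TPM. *asb-1* made up 86.2% ± 0.411 of this sum in N2 EV and 39.4% ± 3.37 in TU3401 EV.

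Core protein 2 of complex III, a matrix-side subunit, is encoded by 3 genes. *ucr-2.3* (III:879860-881458) stood at 160, 165 and 179 TPM in N2 EV and at 102, 98.1 and 81.9 TPM in TU3401 EV, a difference of -0.84 ± 0.09 (adjusted p = 1.8e-05). *ucr-2.1* (X:12018429-12021206) went from 26.0, 27.1 and 33.2 TPM to 146, 144 and 159 TPM, a difference of 2.34 ± 0.10 (adjusted p = 4.7e-08), and *ucr-2.2* (X:15173904-15178145) was 4.47 times higher (log2 difference with a 95% interval of 1.85 to 2.36, adjusted p = 1.8e-07). No library of one group reached the range of the other in any of the 3 genes. The share of *ucr-2.3* in the set was 77.3% ± 0.690 in N2 EV and 28.1% ± 3.88 in TU3401 EV.

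Subunit g of the ATP synthase, which lies in the membrane part, is encoded by *asg-1* (I:8692946-8693468) and *asg-2* (X:6841258-6842121). *asg-2* gave 38.9, 50.8 and 47.4 TPM in N2 EV and 259, 232 and 327 TPM in TU3401 EV, with no overlap and a difference of 2.54 ± 0.14 (adjusted p = 1.8e-07), the largest among the 43 genes. *asg-1* was not called, with -0.15 (95% interval -0.30 to 0.01) as deposited, which turned to 0.02 with FPKM values and to 0.04 with median-ratio scaling. It remained the more abundant gene in every library of both groups, at 89.8% ± 0.789 of the set in N2 EV and 57.2% ± 4.04 in TU3401 EV.

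**Figure D3:**
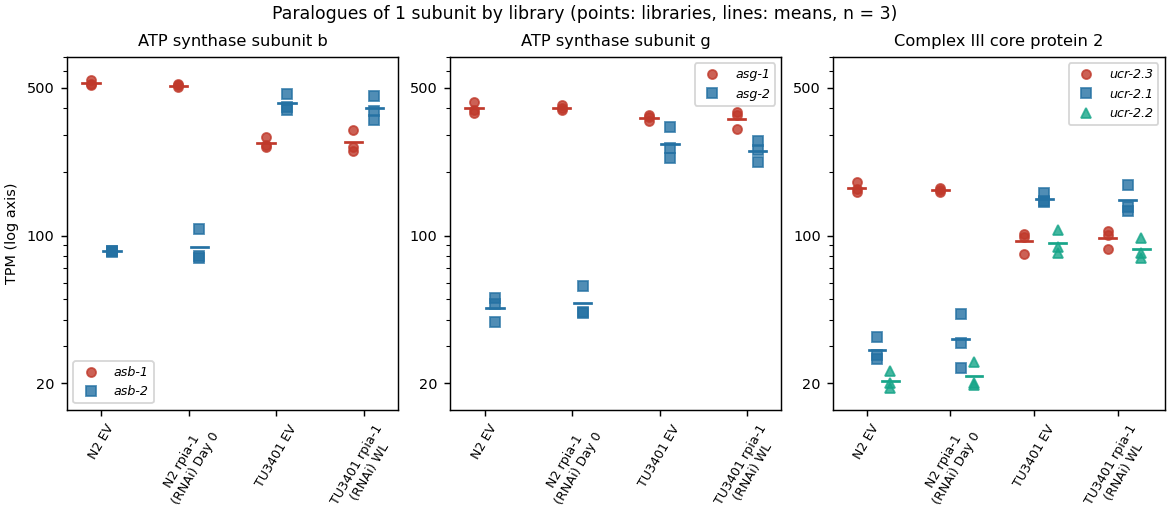
TPM (log axis) of the 7 genes that encode 3 subunits in more than 1 copy, in each of the 12 libraries by group (points: libraries, lines: group means, n = 3). The X-linked copies (squares and triangles) lie below the autosomal copies (circles) in all N2 libraries, and in TU3401 EV *asb-2* and *ucr-2.1* lie above theirs.

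The X-linked genes of these 3 sets are the less abundant copies in N2 EV. All 5 X-linked members, and no other member, had a ratio of means of at least 2. Among all genes tested, 1717 lie on the X chromosome, of which 59.6% were called higher in TU3401 EV and 28.1% lower, with a median of 0.91. On the autosomes these values were 43.3%, 45.7% and -0.07, and 19 of the 38 autosomal members were called higher and 7 lower. A similar set outside the 43 genes is the flavoprotein subunit of complex II, where the share of *sdha-2* in the sum of *sdha-1* and *sdha-2* was 76.0% ± 1.63 in N2 EV and 48.2% ± 3.31 in TU3401 EV. The germline, sperm and muscle marker sums given above differ between the same groups, and their part in these shares was not tested.

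The shares also varied between libraries of 1 group, and together. In all 3 sets and in the *sdha* pair, the gene whose share is given above had its lowest N2 share in replicate 1 of the knockdown, with 82.5% for *asb-1* and 70.5% for *ucr-2.3*. Among the TU3401 libraries, replicate 3 of EV and replicate 3 of the knockdown had the lowest shares in all 4 of these (35.9% and 35.5% for *asb-1*), and replicate 2 of the knockdown had the highest (47.4% for *asb-1*). The summed germline markers were also lowest in replicate 1 of the N2 knockdown (3134 TPM against 3542 to 3831 TPM in the other N2 libraries). In TU3401 they were lowest in replicate 3 of EV (1916 TPM) and replicate 3 of the knockdown (2075 TPM) and highest in replicate 2 of the knockdown (2527 TPM). Genes with at least 2000 exonic bases were lower in the first 2 of these TU3401 libraries than in their group mates (-0.21 and -0.13) and higher in the last (0.16). For genes under 600 bases these values were 0.14, -0.05 and -0.01. Such long genes were also lower in replicate 1 of the N2 knockdown (-0.07) and replicate 2 of N2 EV (-0.06). The latter had the highest *asb-1* share of N2 EV (86.7%) but the lowest *ucr-2.3* share (76.8%). The exonic lengths are 1026 and 1181 bases for *asb-1* and *asb-2*, and 476 and 497 for *asg-1* and *asg-2*. They are 1351, 1432 and 1438 bases for *ucr-2.3*, *ucr-2.1* and *ucr-2.2*. Whether tissue content or these differences by gene length moved the shares was not tested.

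Other genes of the pathway were counted in the same comparison, where 45.4% of all genes tested were called higher and 43.4% lower. Of the 18 complex I genes under sequence names, 14 were called higher in TU3401 EV and none lower, with a median of 0.34, but this list was made after the files were seen. Of the 5 genes of complex II, 2 were higher and 2 lower. Both complex I assembly factors listed, *nuaf-1* and *nuaf-3*, were lower (-0.95 and -0.32). Among 10 genes of mobile carriers and ubiquinone synthesis, 2 were higher and 6 lower. *cyc-2.2*, a cytochrome c gene, was listed at 0 in all N2 EV libraries and at 47.4 to 67.9 TPM in TU3401 EV. *cyc-2.1*, the other cytochrome c gene, was the main one in both groups (872 ± 72.5 and 1048 ± 238 TPM) and was not called. All 6 tested genes of the ATP synthase epsilon subunit, its inhibitors and the ADP/ATP carriers were higher, from *ant-1.1*, the main carrier (0.23), to *ant-1.4* (3.50). Of 10 tested genes of the mitochondrial genome, 1 was higher and 3 were lower, with the complex IV gene *ctc-3* among the lower ones (2560 ± 300 TPM for N2 EV, 1203 ± 81.5 TPM for TU3401 EV). Of 10 genes of the mitochondrial stress response, 1 was higher and 7 were lower, among them the chaperone gene *hsp-6* (-0.48) and the transcription factor gene *atfs-1* (-0.81).

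Adult-onset knockdown of *rpia-1* in N2 left the 43 genes near their control levels. None was called by limma. At an unadjusted p under 0.05 the count was also 0, where 1.66% of all 10626 genes tested reached that level. Over all genes, 1 was called (0.00941%), which was *rpia-1* itself. The log2 differences ran from -0.21 (*cox-10*) to 0.15 (*nuo-6*), with 25 of 43 above 0, where 49.1% of all genes were. Their median was 0.01, against -0.00 for all genes, and their median size without sign was 0.02, against 0.06 for all genes, not matched by level. No member reached a ratio of 2, where 2.02% of all genes did. The groups did not overlap in 3 of 43 members (6.98%), near the 5.11% of all genes.

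These 3 were *cox-10*, *ucr-1* and *isp-1*. *cox-10* stood at 10.0, 9.0 and 9.8 TPM in N2 EV and at 7.6, 8.6 and 8.2 TPM in the knockdown, all below the controls, with a difference of -0.21 ± 0.13 (adjusted p = 1.00). *isp-1* gave 292, 292 and 289 TPM and then 306, 295 and 302 TPM. Its groups were separate but close, with a difference of 0.05 (95% interval -0.04 to 0.13) that turned to -0.08 with FPKM values, which moved the median of all genes to -0.13. *ucr-1* differed by -0.06 (95% interval -0.15 to 0.03). *nuo-6* had the smallest unadjusted p of the 43 (0.11). It gave 144, 141 and 147 TPM in N2 EV and 182, 147 and 153 TPM in the knockdown, where replicate 1 lay above the other 5 libraries, and its 95% interval was -0.04 to 0.34. Replicate 1 was also the highest N2 library for *asb-2* (107 TPM against 78.8 to 84.7 TPM) and *ucr-2.1* (42.5 TPM against 23.6 to 33.2 TPM). The same library had the highest sum of hypodermis markers (161 TPM against 24.1 to 60.1 TPM) and the highest sum of muscle markers (159 TPM against 109 to 133 TPM), and their part in these values was not tested. Over the whole knockdown group, the 8 intestine markers summed to 120 to 147 TPM against 160 to 168 TPM in N2 EV, with no overlap. All 8 lay below 0 (median -0.28), none was called and 3 had an unadjusted p under 0.05. The standard errors had a median of 0.06, from 0.03 to 0.26, and the 95% intervals of all 43 genes lay within -0.69 and 0.63. Without that library, 33 genes of the whole table were called and still no member.

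Whole-life knockdown in TU3401 likewise gave no call among the 43 genes by limma, and none had an unadjusted p under 0.05. None of the 13921 genes tested was called (0%), and 1.18% had an unadjusted p under 0.05. The differences ran from -0.14 (*ucr-11*) to 0.12 (*cox-14*), with 16 of 43 above 0 (37.2%), where 51.3% of all genes were. Their median was -0.02, against 0.00 for all genes. This order turned without TU3401 EV replicate 3, which stood apart. The members then had a median of 0.0046, with 26 of 43 above 0. All genes had a median of -0.0052, with 6605 of 13821 above 0. Median-ratio scaling moved the median of the members to 0.01, with 31 above 0, and that of all genes to 0.03, with 8206 of 13921 above 0. It multiplies all genes of a library by a single factor, so it cannot test where the members lie among all genes. All 7 complex IV subunits were below 0, from -0.13 (*cox-6C*) to -0.00 (*cox-6A*), none of them called. In all 7, replicate 3 of EV, which stood apart, was the highest EV library, so their shared sign leans on that library. *cox-6A* gave 365, 358 and 435 TPM in EV and 368, 379 and 405 TPM in the knockdown. *cox-6C* gave 547, 544 and 694 TPM in EV and 548, 490 and 590 TPM in the knockdown. No member reached a ratio of 2, against 0.797% of all genes, and the groups did not overlap in 1 of 43 members, against 3.38% of all genes.

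That gene was *nduf-7*, an iron-sulfur subunit of complex I. It gave 223, 220 and 232 TPM in TU3401 EV and 206, 203 and 210 TPM in the knockdown, all below the controls, with a difference of -0.12 ± 0.08 (95% interval -0.31 to 0.07, adjusted p = 1.00). *ucr-11*, a small subunit of complex III, gave 334, 327 and 451 TPM in EV and 331, 326 and 338 TPM in the knockdown. Its groups overlapped, replicate 3 of EV was the high one, and without that library the difference was 0.00. *cox-14*, an assembly factor of complex IV, gave 139, 142.1 and 128 TPM and then 160, 157 and 131 TPM, with a difference of 0.12 (95% interval -0.13 to 0.37) that turned to -0.05 with FPKM values, which moved the median of all genes to -0.15. The 95% intervals of all 43 genes lay within -0.59 and 0.37. In the same comparison the 4 pharynx markers had a median difference of -0.63, none called, with sums of 19.6, 15.8 and 63.1 TPM in the knockdown libraries.

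**Figure D4:**
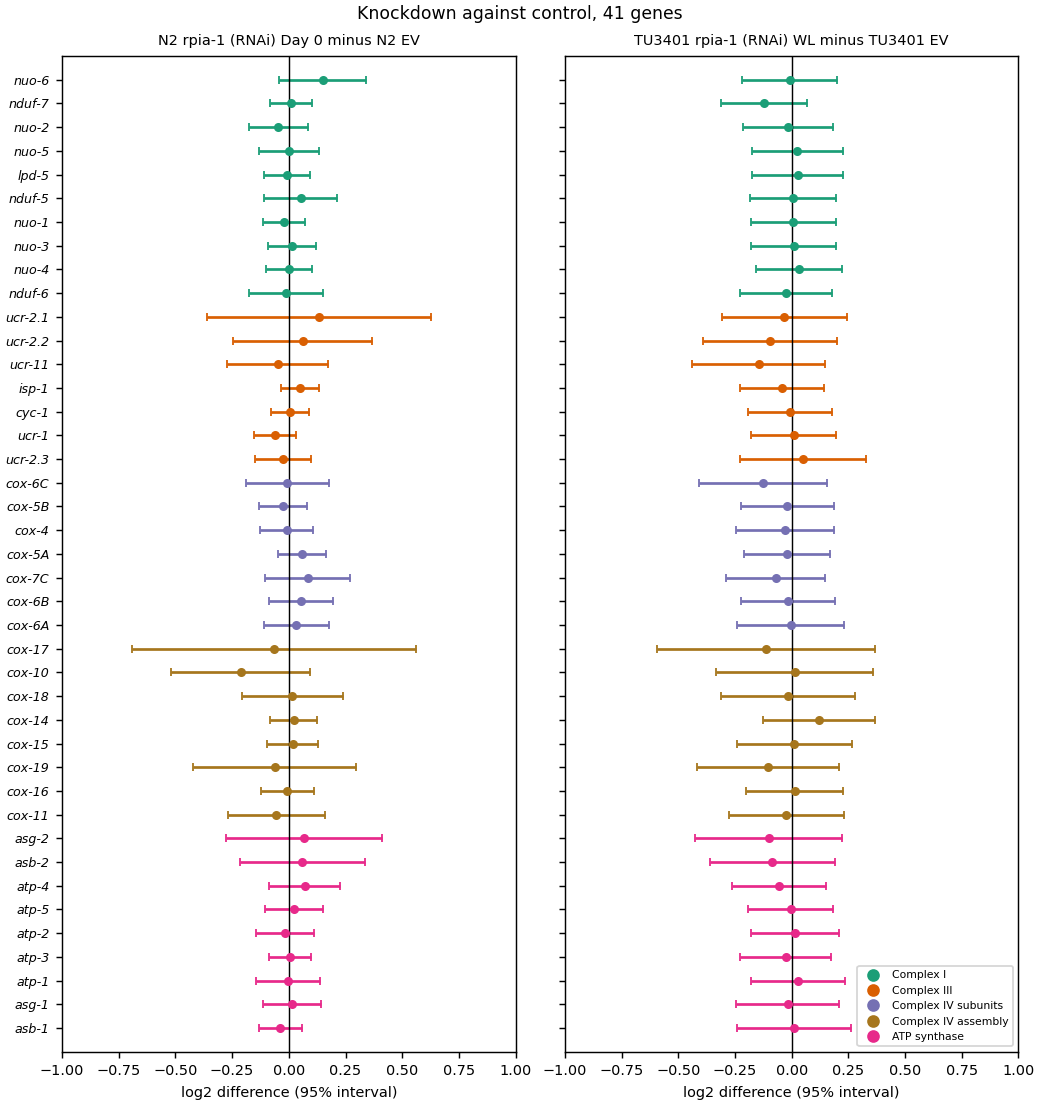
Difference of log2(TPM + 1) between knockdown and control (horizontal axes, 95% intervals, 3 libraries a group) for 41 of the 43 genes in N2 (left) and TU3401 (right). Every interval includes 0, and the points lie between -0.21 and 0.15 in N2 and between -0.14 and 0.12 in TU3401.

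The knockdown changes of both strains were also compared with each other, in a fit of all 12 libraries. No member was called by limma and none had an unadjusted p under 0.05, against 0.00747% (*rpia-1* alone) and 1.17% of 13383 genes. The smallest unadjusted p belonged to *nduf-7* (0.09), whose difference of changes was -0.13 (95% interval -0.29 to 0.02). For *nuo-6* it was -0.16 (95% interval -0.41 to 0.09). The comparisons share control libraries, N2 EV entering both the N2 knockdown and the EV comparison, and TU3401 EV likewise. For *isp-1* the 3 values side by side were 0.05 (N2 knockdown), -0.04 (TU3401 knockdown) and 0.48 (EV comparison), and for *cox-6C* they were -0.01, -0.13 and 0.96. None of the other pathway lists counted above, with complex II, carriers, the mitochondrial genome and the stress response among them, had a called gene in either knockdown.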

How the data were processed

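The authors sequenced stranded mRNA libraries (paired ends) and deposited 2 tables, of FPKM and of values they label TPM. The deposited TPM signal equals the FPKM values times a single factor per library and sums to slightly over its nominal total, so it was handled as a signal. The submitters' processing notes name HISAT2 2.2.1, featureCounts 1.6.2, Trimmomatic 0.36, FastQC 0.11.9 and MultiQC 1.12. The genome build, the use of strand and the handling of reads that map to several genes are not given in the sources used here. Of 46904 genes, 46817 matched Ensembl release 115, which gave coordinates. In 2 libraries the low values did not follow the step of the other 10, so depth was not derived.

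Each comparison was fitted with limma 3.58.1 in R 4.3.3 on log2(TPM + 1), with empirical Bayes moderation and a trend of variance with level. Genes averaging under 1 TPM over the libraries of a fit were left out, and all 43 members passed. Log2 differences are on that scale, which understates changes of low genes, and ratios are of mean TPM. A Benjamini-Hochberg adjusted p under 0.05 over all genes tested was called. The study's own filter, a ratio of 2 with no test, was an alternative, as were FPKM, other pseudocounts, minimum levels, scalings, weights and variance models, a fit of all 12 libraries, a replicate block and leaving out each library in turn. Column headers carry the same numbers for EV and knockdown of a strain, but whether these pair the samples is not stated. Same-numbered libraries deviated together in some pairs only, and 3 libraries a group are too few to settle it. The main fits therefore used no pairing. Named are the highest and lowest gene of each complex, the multi-copy sets, genes used in mitochondrial longevity work, the 6 largest called differences in each direction between the EV groups, and the 4 (knockdowns) or 2 (difference of changes) smallest unadjusted p-values. Single values of 2 complex I genes are not reported here, though both are in the counts. Any other gene was named with its values known. The members and lists were chosen with earlier results of these data known. Sequences were not used here.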

Additional observations from a re-analysis of the deposited data

How the results depend on the processing

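No member was called in either knockdown or in the difference of their changes under any alternative run. At an unadjusted p under 0.05, library weights gave 5 of 43 members in N2, where 2113 of all 10626 genes tested reached that level. That is a smaller share of the members than of all genes. No other alternative gave more than 2 members in any of these comparisons. The number of all genes called moved more. In N2 it was 1 as reported, 2 with no minimum level, 282 with library weights, 215 by the ratio of 2 without a test, and 1 to 33 with each library left out in turn (33 without knockdown replicate 1, 2 without EV replicate 3). In TU3401 it was 0, then 6 with no minimum, 1 with weights, 111 by the ratio of 2, and 0 to 1 with each library left out (1 without EV replicate 3 or knockdown replicate 3). For the difference of changes it was 1, then 0 with FPKM, 10 with no minimum and 1 to 2 without a library (2 without TU3401 knockdown replicate 3). Between the EV groups the ratio of 2 took 7825 genes and the test 11859. With the replicate number as a block the counts were 1, 0, 11844 and 1, and 30 members were called between the EV groups. Genes with an unadjusted p under 0.05 (limma) then numbered 101 in N2 (176 without the block) and 355 in TU3401 (164 without it). No member was among them. Same-numbered libraries correlated by -0.44, 0.04 and -0.41 in N2 and by 0.05, 0.44 and 0.42 in TU3401.

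The median of the members moved by scaling. In N2 it was 0.01 as reported, -0.12 with FPKM and 0.023 with weights, and -0.0069 to 0.017 with each library left out. In TU3401 it was -0.02, then -0.18 with FPKM, 0.013 with median-ratio scaling, -0.0046 with weights and -0.036 to 0.0046 without a library. Between the EV groups it was 0.24, then 0.40 with FPKM, 0.43 with median-ratio scaling, 0.23 with weights, 0.20 to 0.26 without a library and 0.22 without both libraries that stood apart, an alternative chosen after seeing the data. Members called there numbered 23 with FPKM and 29 to 35 otherwise. Signs turned for *isp-1* in N2 (-0.081 with FPKM), for *ucr-11* (-0.23 to 0.0035 with each library left out, the latter without TU3401 EV replicate 3) and *cox-14* (-0.046 with FPKM) in TU3401, and, between the EV groups, for *asg-1* (0.019 with FPKM, 0.040 with median-ratio scaling) and *nuo-3* (0.14 with FPKM, 0.16 with median-ratio scaling, 0.016 with weights, and -0.060 to 0.0023 with each library left out, the latter without TU3401 EV replicate 3). FPKM and median-ratio scaling multiply all genes of a library by a single factor, so the turns under them are that shift. For the other turns the cause was not tested. Over all alternatives for the named members, 453 values between the EV groups kept sign and call, 12 lost and 5 gained a call, and 169 in the knockdowns and their difference kept both. Leaving a group with 2 libraries assumes that they vary like the others. With 3 libraries a group and unknown depth, small knockdown differences within the intervals given could not be detected.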
